A study of Mus musculus with 4 samples.

Results

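The matrix metalloproteinases (MMPs), the ADAM and ADAMTS proteases and the tissue inhibitors of metalloproteinases (TIMPs) were followed in mouse embryonic fibroblasts with and without added NSD2. Members were taken by gene symbol, as all probes whose platform symbol is Mmp, Adam, Adamts, Adamtsl or Timp followed by a number. The rule found 103 probes of 25697, which stand for 69 genes of 16593: 20 Mmp, 29 Adam, 14 Adamts, 2 Adamtsl and 4 Timp genes. Total RNA was measured on Illumina bead arrays in embryonic fibroblasts of p19ARF-/- mice, and every group carries this deletion. The cells were stably transduced with a control vector or with wild-type NSD2, a methyltransferase of histone H3, and grew untreated in a medium with serum. Each group held 2 arrays (n = 2), although the design is described as triplicate. The labels give neither the promoter that drives NSD2 nor the number of clones, and nothing in them ties a replicate to a culture of its own. Each p-value thus reflects the spread among 4 arrays, which may be technical.

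MMPs are zinc-dependent enzymes that are made as inactive precursors and, once activated, cut collagens, gelatins and other matrix proteins, most of them secreted and some anchored in the cell membrane. ADAMs are membrane proteins, and those with an active site release growth factors, cytokines and adhesion proteins from the cell surface, while others act in adhesion or are known from the male germ line. ADAMTS enzymes are secreted and cut proteoglycans and procollagens, and the related ADAMTSL proteins lack the protease domain. TIMPs bind the active site and hold these enzymes in check, and fibroblasts are a main source of both the enzymes and the inhibitors in connective tissue.

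The 75th percentile of the signal was 357 and 345 on control vector 1 and NSD2 1, against 490 and 491 on control vector 2 and NSD2 2. The median signal was 173 and 204 for the control arrays and 164 and 172 for the NSD2 arrays, highest on control vector 2. A probe was called above background when its signal exceeded an array's limit, which lay between 178 and 219 signal units and was estimated from the dim side of the signal distribution. The transduced gene, Nsd2 (Whsc1), is not analysed here, since none of the named probes matched it. The labels' entries for tissue, given as blood, and for age do not describe embryonic fibroblasts. Of 9 measured fibroblast markers 8 were above background on all 4 arrays, and of 7 measured blood markers 0 were (3 of 7 on at least 1 array). Of 5 measured epithelial markers 3 (Krt8, Krt14 and Krt18) were above background on all 4 arrays, Cdh1 on 3 and Krt5 on 0. Krt14, a keratin gene of basal epithelia, had log2 intensities of 14.16 and 14.70 in control cells and 14.59 and 14.75 with NSD2. Summed over the epithelial markers, the signal came to 19280 and 35589 in control cells and to 24774 and 36142 with NSD2. Most of this sum was Krt14 alone, with 16363 and 31041 in control cells and 21804 and 31549 with NSD2. It is thus no measure of epithelial content, and the part of epithelial cells in the members' values was not tested.

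The members divided into a few strong signals and a large set near or below background. Of the 69 genes, 25 (36.2%) were above background on all 4 arrays, compared with 6902 of all 16593 genes (41.6%). A further 9 members were above background on 1 to 3 arrays and 35 on none. By family, the 25 were 8 of 20 Mmp genes, 7 of 29 Adam genes, 6 of 14 Adamts genes, 1 of 2 Adamtsl genes and 3 of 4 Timp genes. Under a stricter background limit (the upper 1% point in place of the upper 5% point) 22 genes were left, without Adam10, Adamts3 and Mmp1a. In bulk RNA, fewer cells that make a transcript and less of it per cell cannot be told apart.

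**Figure D1:**
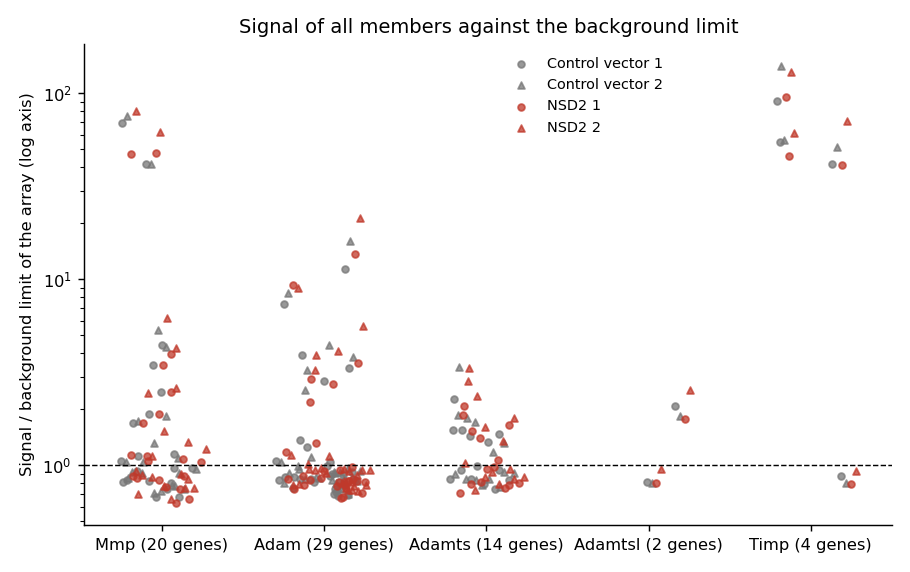
Signal of each member's probe divided by the background limit of its array (log axis), by family. Each point is 1 gene on 1 array, grey for control vector and red for NSD2, circles for replicate 1 and triangles for replicate 2, and the dashed line marks the limit. Most Adam genes lie below the line, while Timp1, Timp2, Timp3, Mmp2 and Mmp14 reach at least 41.2 times the limit on every array.

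No member passed the test of NSD2 against control vector. Over all genes, 4 of 16593 passed (0.0241%, limma, Benjamini-Hochberg adjusted p under 0.05), and 0 of the 69 members did, each with an adjusted p of 0.9996. At an unadjusted limma p under 0.05 there were 0 members against 649 of all genes (3.91%). Among genes above background on all 4 arrays the shares were 0.0290% adjusted and 3.17% unadjusted, again with 0 of the 25 members there in either count. Among the 25 members above background on all 4 arrays, 14 had a higher and 11 a lower mean with NSD2, with a median log2 difference of 0.05. This median was 0.0024 without control vector replicate 2 and 0.0054 without NSD2 replicate 1. It turned to -0.0087 without NSD2 replicate 2, where 13 of 28 members had a higher mean. Of the 6902 genes above background on all 4 arrays, 3396 (49.2%) had a higher mean, with a median of -0.0037. The median size of the difference, irrespective of sign, was 0.17 for the members and 0.13 for those genes. The groups did not overlap for 9 of the 25 members, 5 higher and 4 lower with NSD2, where 30.7% of all genes above background on all 4 arrays had groups that did not overlap. With 2 arrays against 2, an exact permutation test of 1 gene cannot give a two-sided p below 0.333.

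**Figure D2:**
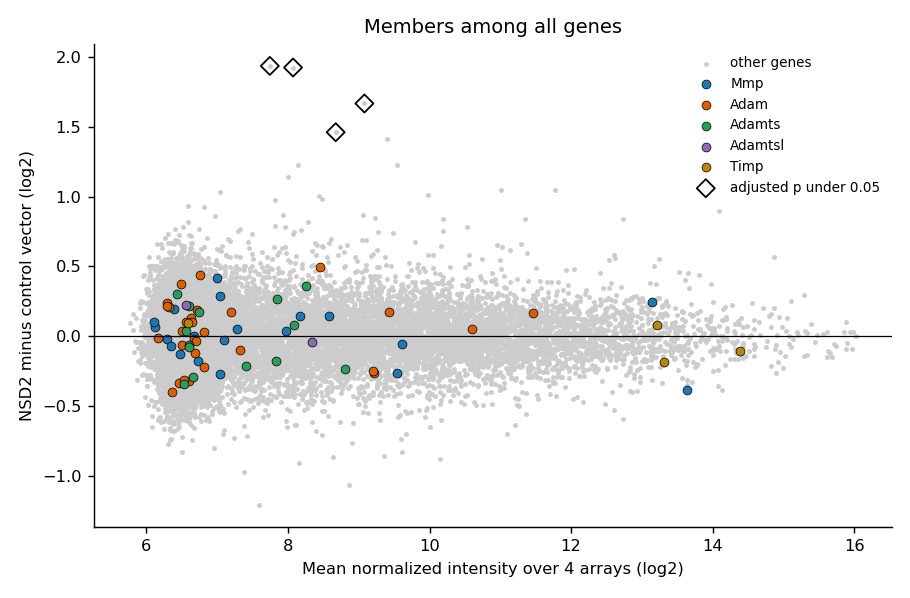
Log2 difference (NSD2 minus control vector) against the mean normalized log2 intensity over 4 arrays for all genes in grey, with members coloured by family. Diamonds mark the 4 genes with an adjusted p under 0.05, none of which is a member, and the members lie between -0.40 and 0.49.

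The gelatinase Mmp2 and its cell-surface activator Mmp14 were measured far above background, and their means differed in opposite directions. Mmp14, the membrane-type enzyme that cuts fibrillar collagen and starts the activation of pro-MMP2, had log2 intensities of 13.85 and 13.81 in control cells and 13.32 and 13.57 with NSD2. Both NSD2 arrays lay below both control arrays. The means were 13.83 ± 0.03 and 13.44 ± 0.18 (SD, n = 2), a log2 difference of -0.39 ± 0.21 (SE, 95% interval -0.82 to 0.05) that missed the limma threshold (adjusted p = 0.9996). Mmp2, which cuts gelatin and basement membrane collagen, stood at 13.13 and 12.91 in control cells and 13.33 and 13.20 with NSD2. These groups also did not overlap, with NSD2 higher, and the log2 difference was 0.24 ± 0.21 (95% interval -0.19 to 0.68). Within replicate number 1 the differences were -0.54 for Mmp14 and 0.20 for Mmp2, and within number 2 they were -0.24 and 0.29. The other gelatinase gene, Mmp9, was above background on 3 arrays, with log2 intensities of 7.29 and 7.07 in control cells and 7.17 and 6.65 with NSD2. Its difference was -0.28 ± 0.22, with overlapping groups, and -0.014 without NSD2 replicate 2. Without NSD2 replicate 1 the difference of Mmp14 was -0.24, and without control vector replicate 2 that of Mmp2 was 0.14.

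TIMP2 bridges MMP14 and pro-MMP2 at the cell surface, while TIMP1 is a secreted inhibitor of most soluble MMPs and TIMP3 is bound to the matrix and also inhibits ADAM17 and aggrecanases. Timp1 had log2 intensities of 13.49 and 13.33 in control cells and 13.26 and 13.18 with NSD2. The NSD2 arrays were lower than the control arrays, with a difference of -0.19 ± 0.20, and a second Timp1 probe, whose groups overlapped, differed by -0.07 ± 0.20. Timp2 stood at 13.14 and 13.21 in control cells and at 13.11 and 13.40 with NSD2, a difference of 0.08 ± 0.21 with overlapping groups. Timp3 had 14.20 and 14.68 in control cells and 14.28 and 14.38 with NSD2. Its groups overlapped too, with a difference of -0.10 ± 0.22 and the same -0.10 (± 0.28) at a second probe. The SE exceeded the size of the difference for all 3 genes. The 95% intervals ran from -0.62 to 0.24 for Timp1, from -0.36 to 0.52 for Timp2 and from -0.57 to 0.36 for Timp3. Differences within these intervals are not excluded. The sign turned for Timp2 without NSD2 replicate 2 (-0.06) and for Timp3 without control vector replicate 2 (0.13). Timp4, the fourth inhibitor gene, was above background on 0 arrays.

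**Figure D3:**
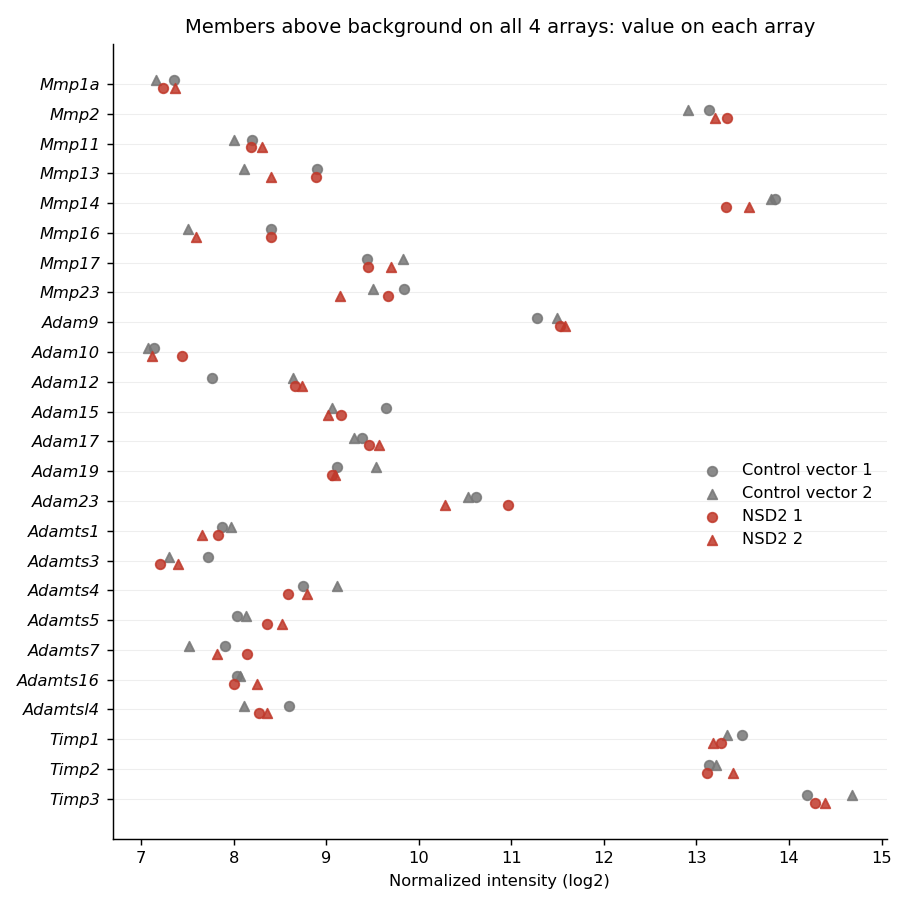
Normalized log2 intensity of the 25 members above background on all 4 arrays, 1 point per array, grey for control vector and red for NSD2, circles for replicate 1 and triangles for replicate 2. Mmp14, Timp1, Adam19 and Adamts1 have both red points left of the grey ones, and Adam12, Adamts5, Adam17, Adam9 and Mmp2 have them to the right. Levels of different genes come from different probes and are not comparable with each other.

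Collagenase and stromelysin genes lie side by side on chromosome 9, and AP-1, the FOS and JUN transcription factor, is the textbook activator of several of them. Of 9 members in this cluster, listed in RefSeq's gene order as Mmp13, Mmp12, Mmp1b, Mmp3, Mmp1a, Mmp10, Mmp8, Mmp20 and Mmp7, 2 were above background on all 4 arrays, 2 on some and 5 on none. The 250 bases before each start in the RefSeq promoter table (GRCm38.p6) were searched for the AP-1 motif TGAGTCA and its reverse complement TGACTCA, which covers both strands. The motif was found for 7 of the 9 genes, against 5.16% of all 27025 genes in the table, and in the cluster it was absent from the windows of Mmp8 and Mmp20. Outside the cluster it was found for 2 of 33 members with a promoter in the table, Adam19 and Adam29. The stretches around the motif are shown because 7 of the 9 genes hold it, among them genes above background on all 4 arrays, on some and on none. Each is 47 bases long, 5′ to 3′ on the gene's strand, with the motif in capitals.
Mmp13: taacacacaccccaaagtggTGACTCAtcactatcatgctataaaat
Mmp1a: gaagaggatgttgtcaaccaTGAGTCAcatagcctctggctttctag
Mmp3: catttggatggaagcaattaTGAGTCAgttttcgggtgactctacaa
Mmp10: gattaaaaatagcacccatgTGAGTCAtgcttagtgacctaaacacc
Mmp12: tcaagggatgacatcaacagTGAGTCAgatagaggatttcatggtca
Mmp1b: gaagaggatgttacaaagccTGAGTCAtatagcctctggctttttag
Mmp7: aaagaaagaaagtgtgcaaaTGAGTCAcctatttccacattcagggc
The stretch of Mmp13 lies at chr9:7272459-7272505 on the plus strand, with the motif starting 35 bases before the start of transcription. Those of Mmp3 (chr9:7445756-7445802, 46 bases), Mmp1a (chr9:7464048-7464094, 73 bases), Mmp10 (chr9:7502259-7502305, 63 bases), Mmp12 (chr9:7347310-7347356, 44 bases) and Mmp7 (chr9:7692007-7692053, 63 bases) are on the plus strand too. That of Mmp1b (chr9:7388093-7388139, 93 bases) is on the minus strand. Mmp12 and Mmp7 each have another listed start, and the window before it held 0 matches. The stretches of Mmp1a and Mmp1b are identical at 40 of 47 positions. A match to these letters is a description of the sequence and does not show that the factor binds there.

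Within this cluster, Mmp13, which encodes the main interstitial collagenase of rodents, had log2 intensities of 8.90 and 8.11 in control cells and 8.89 and 8.40 with NSD2. Replicate 1 lay above replicate 2 in each group, the groups overlapped, and the difference was 0.14 ± 0.26. Other Mmp13 probes, above background on 0 arrays, differed by -0.34 and 0.21. Mmp1a, a mouse counterpart of human interstitial collagenase, stood at 7.35 and 7.15 in control cells and 7.23 and 7.37 with NSD2 (difference 0.05 ± 0.20). Its signal reached only 1.08 to 1.33 times the background limit, and as a close copy of Mmp1b it may share signal with that gene. A second Mmp1a probe, above background on 0 arrays, differed by 0.22. Mmp3, which encodes stromelysin 1, was above background on both NSD2 arrays and on neither control array, with signals of 0.936 and 0.913 times the limit in control cells and 1.12 on both NSD2 arrays. Its log2 difference was 0.42 (measured means 6.80 and 7.21, limma adjusted p = 0.9996). The 95% interval of -0.02 to 0.85 includes no change. The ratio of the NSD2 mean to the mean of floored control values was 1.17-fold and is not a lower limit. The floored value of each control array is whichever is larger, the dimmest value above background or that of Mmp3 itself. Other Mmp3 probes, above background on 0 arrays, differed by -0.15 and -0.01. Mmp10, the stromelysin 2 gene, was above background on 3 arrays and differed by -0.03 ± 0.23. Without control vector replicate 2 or NSD2 replicate 1 the sign turned for Mmp13 (-0.25 and -0.10), and without control vector replicate 2 or NSD2 replicate 2 for Mmp1a (-0.05 and -0.01). For Mmp10 it turned without control vector replicate 1 or NSD2 replicate 2 (0.01 and 0.24).

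**Figure D4:**
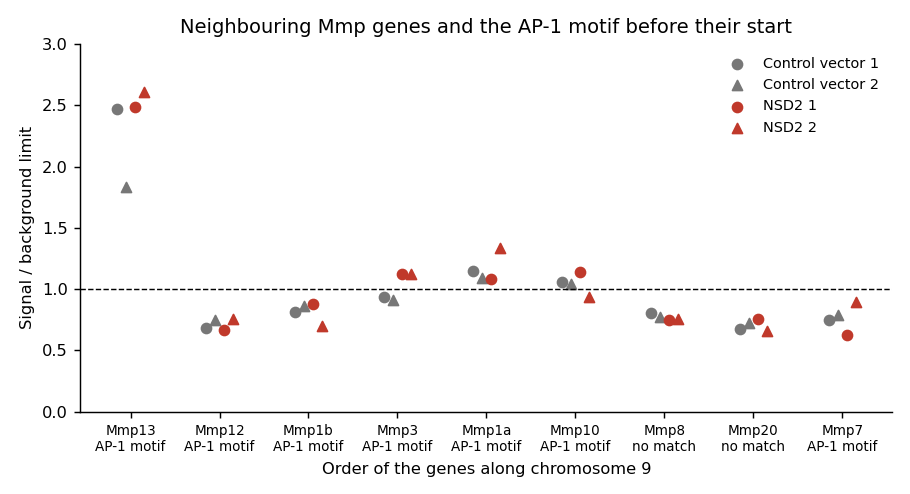
Signal divided by the background limit for the 9 Mmp genes of the chromosome 9 cluster in their order along the chromosome, 1 point per array (grey control vector, red NSD2, circles replicate 1, triangles replicate 2), with the motif search result under each name. Only Mmp13 exceeds 1.5 times the limit, and the 2 NSD2 arrays of Mmp3 lie above the dashed line where its control arrays lie below it.

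Of the remaining membrane-bound and other MMP genes, Mmp16, Mmp17, Mmp23 and Mmp11 were above background on all 4 arrays. Mmp16, a membrane-type enzyme gene, had 8.41 and 7.51 in control cells and 8.40 and 7.59 with NSD2. Replicate 1 was well above replicate 2 in each group, while the groups differed by 0.04 ± 0.29. A second Mmp16 probe, above background on 0 arrays, differed by -0.09. Mmp17, whose product is held in the membrane by a lipid anchor, stood at 9.44 and 9.83 in control cells and 9.45 and 9.70 with NSD2 (-0.06 ± 0.22). Mmp23, an MMP gene with an unusual transmembrane N terminus, had 9.84 and 9.50 in control cells and 9.67 and 9.15 with NSD2. The lowest value was on NSD2 2, the groups overlapped, and the difference was -0.26 ± 0.23, or -0.0038 without NSD2 replicate 2. Mmp11, the stromelysin 3 gene, whose product is activated inside the cell by furin, had 8.19 and 8.001 in control cells and 8.18 and 8.30 with NSD2 (0.15 ± 0.20, and 0.049 without control vector replicate 2). Without control vector replicate 2 or NSD2 replicate 1, the sign turned for Mmp16 (-0.40 and -0.38) and for Mmp17 (0.14 and 0.07), and for Mmp17 also with median scaling (0.01). Mmp28, the epilysin gene, was above background on both NSD2 arrays only (measured means 6.90 and 7.18, limma adjusted p = 0.9996). Its difference was 0.29, with a 95% interval of -0.14 to 0.72 that includes no change. The ratio to floored control values, formed as for Mmp3, was 1.15-fold and is likewise not a lower limit. A second Mmp28 probe, above background on 0 arrays, differed by -0.21. Mmp7, Mmp8, Mmp12, Mmp19, Mmp1b, Mmp20, Mmp21 and Mmp24 were above background on 0 arrays.

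Of the 7 Adam genes above background on all 4 arrays, 5 had a higher and 2 a lower mean with NSD2, and 0 passed the test. Adam12, which encodes a meltrin of developing and regenerating mesenchyme, had the largest difference of the 25 members. Its log2 intensities were 7.76 and 8.64 in control cells and 8.66 and 8.73 with NSD2, a difference of 0.49 ± 0.25 (means 8.20 ± 0.62 and 8.70 ± 0.05, SD, n = 2). The low value lay on control vector 1 alone, and without that array the difference was 0.05, against 0.92 without control vector replicate 2. Adam9, a sheddase gene, stood at 11.28 and 11.49 in control cells and 11.52 and 11.58 with NSD2 (0.17 ± 0.20). Adam17, the enzyme gene for release of TNF and EGF receptor ligands, had 9.39 and 9.30 in control cells and 9.46 and 9.57 with NSD2 (0.17 ± 0.20). For Adam9 and Adam17 both NSD2 arrays were above both control arrays, by less than the SE. Adam10, the main sheddase gene of Notch receptors, stood close to background at 7.14 and 7.07 in control cells and 7.44 and 7.11 with NSD2 (0.17 ± 0.21). The Adam10 difference was 0.0054 without NSD2 replicate 1 and 0.31 without NSD2 replicate 2, and that of Adam9 was 0.061 without control vector replicate 1.

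Adam19, the meltrin beta gene, known from heart valve development, had 9.12 and 9.54 in control cells and 9.06 and 9.10 with NSD2. The NSD2 arrays lay below the control arrays, with a difference of -0.25 ± 0.21, or -0.04 without control vector replicate 2. The AP-1 match at Adam19 starts 131 bases before a listed start, at chr11:46055833-46055879 on the plus strand. Adam19 has other listed starts too, and the windows before them held 0 matches. Adam15 had 9.64 and 9.06 in control cells and 9.16 and 9.02 with NSD2 (-0.26 ± 0.23). Its highest value was on control vector 1, and the sign turned without that array (0.03). A second Adam15 probe, above background on 0 arrays, differed by -0.15. Adam23, which encodes a neuronal adhesion protein without protease activity, had 10.62 and 10.53 in control cells and 10.96 and 10.29 with NSD2. The NSD2 arrays lay on either side of the control arrays, the difference was 0.05 ± 0.23, and the sign turned without NSD2 replicate 1 (-0.29). A second Adam23 probe above background on all 4 arrays differed by 0.12 ± 0.26. Adam22, a gene of the same non-catalytic group, was above background on 3 arrays and differed by -0.10 ± 0.26, with the sign turned without control vector replicate 1 (0.09) or NSD2 replicate 2 (0.29).

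Of the 29 Adam genes, 18 were represented by a probe above background on 0 arrays. Adam2, Adam3 and Adam5, which encode sperm surface or testis proteins, were above background on 0 arrays, as were the leukocyte gene Adam8 and the lymphocyte gene Adam28. The others of the 18 were Adam4, Adam6a, Adam7, Adam11, Adam20, Adam21, Adam25, Adam29, Adam30, Adam32, Adam33, Adam34l and Adam39. Another Adam4 probe was above background on 1 array, control vector 2. Of 11 Adam members on the same chromosome as Adam9, 8 were above background on 0 arrays, Adam24 and Adam26a on 1 array each, and Adam9 on all 4. Adam1b was above background on NSD2 2 alone, with log2 intensities of 6.47 and 6.61 in control cells and 6.86 and 7.09 with NSD2 (0.44 ± 0.21), while its other probes, above background on 0 arrays, differed by 0.26 and -0.06. For Adam24 and Adam26a the differences were -0.22 ± 0.22 and 0.19 ± 0.24. That of Adam26a was -0.15 without control vector replicate 1. Other Adam26a probes, above background on 0 arrays, differed by -0.05 and -0.36.

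The ADAMTS genes measured on all 4 arrays include the aggrecanases, which cut the cartilage proteoglycan aggrecan and the fibroblast proteoglycan versican. Adamts5 had log2 intensities of 8.03 and 8.13 in control cells and 8.36 and 8.52 with NSD2. Both NSD2 arrays exceeded both control arrays, by 0.33 in replicate number 1 and 0.39 in number 2, and the difference was 0.36 ± 0.20 (95% interval -0.07 to 0.79, limma adjusted p = 0.9996). Adamts4 stood at 8.75 and 9.12 in control cells and 8.59 and 8.79 with NSD2, a difference of -0.24 ± 0.21 with overlapping groups. It was -0.053 without control vector replicate 2 and -0.43 without control vector replicate 1. Adamts1, the third versican-cutting enzyme gene, had 7.87 and 7.97 in control cells and 7.82 and 7.66 with NSD2. Its NSD2 arrays lay below the control arrays, with a difference of -0.18 ± 0.20. A second Adamts1 probe, above background on NSD2 1 alone, differed by -0.01 ± 0.26, with overlapping groups.

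Adamts7, which encodes an enzyme that cuts cartilage oligomeric matrix protein, had 7.91 and 7.52 in control cells and 8.14 and 7.82 with NSD2. Its differences within replicate numbers 1 and 2 were 0.23 and 0.30, and the difference of the means was 0.27 ± 0.22, with overlapping groups. That value was 0.070 without control vector replicate 2 and 0.48 without control vector replicate 1. Adamts3, a procollagen N-proteinase gene, had 7.72 and 7.30 in control cells and 7.20 and 7.39 with NSD2 (-0.21 ± 0.22), with opposite signs in the replicate numbers (-0.52 and 0.09) and -0.0095 without control vector replicate 1. Adamts16 had 8.03 and 8.07 in control cells and 8.001 and 8.25 with NSD2 (0.08 ± 0.21, and -0.05 without NSD2 replicate 2). Adamtsl4, which encodes a microfibril-associated protein of the eye lens suspension, stood at 8.60 and 8.11 in control cells and 8.27 and 8.36 with NSD2 (-0.04 ± 0.22). Its sign turned with median scaling (0.05) and without control vector replicate 1 (0.21) or NSD2 replicate 1 (0.0087). Adamts13, the von Willebrand factor protease gene, was above background on NSD2 2 alone and differed by -0.06 ± 0.24, with the sign turned without control vector replicate 2 (0.0091) or NSD2 replicate 1 (0.33). Other Adamts13 probes, above background on 0 arrays, differed by -0.16 and 0.07. Adamts8, Adamts12, Adamts15, Adamts17, Adamts18, Adamts19, Adamts20 and Adamtsl2 were above background on 0 arrays.

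**Figure D5:**
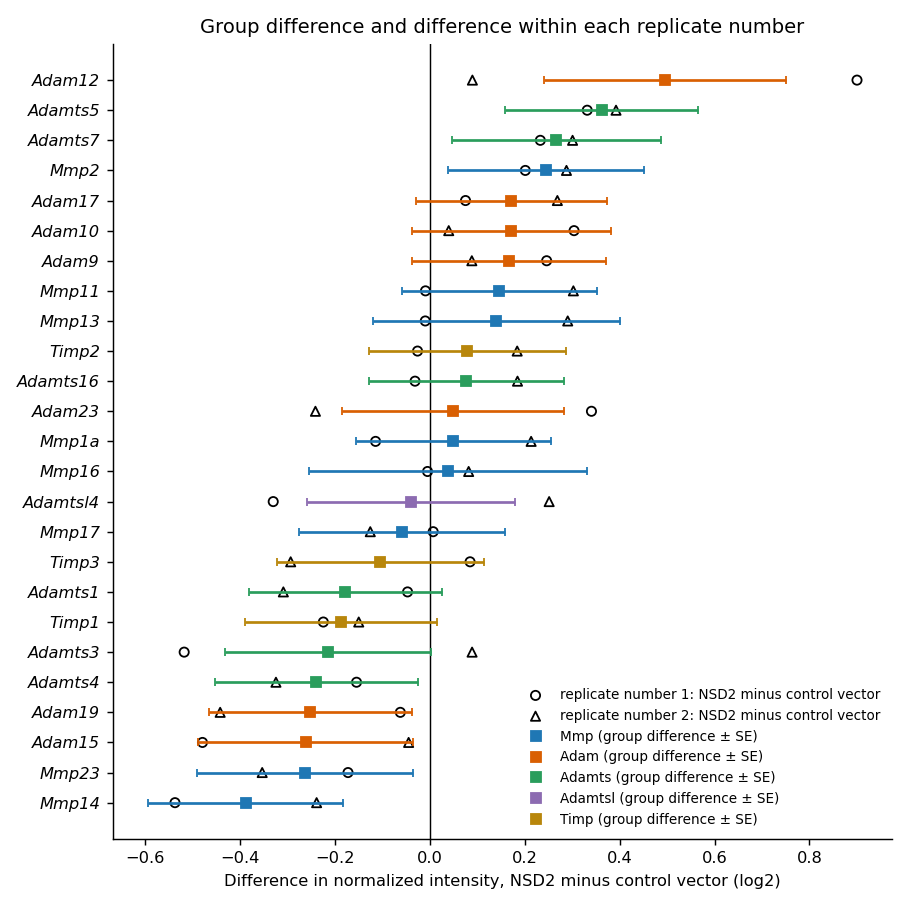
Log2 difference (NSD2 minus control vector) of the 25 members above background on all 4 arrays, squares for the group difference with bars of ± 1 SE from limma, coloured by family, and open circles and triangles for the difference within replicate number 1 and 2. The largest values are Adam12 at 0.49 and Mmp14 at -0.39, and the circle and triangle of Adam12 stand far apart at 0.90 and 0.09.

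Replicate number separated the members' values about as far as the groups did. For 13 of the 25 members the mean gap between replicate 2 and replicate 1 was larger than the difference between groups (52.0%), and for 59.9% of all genes above background on all 4 arrays. The median size of this gap was 0.20 for the members and 0.18 for those genes. Replicate 2 was higher in both groups for 9 members and lower in both for 9. In 4 members the gap exceeded 0.3 in each group: Mmp13, Mmp16, Mmp23 and Adamts7, all with replicate 1 higher. NSD2 minus control vector had the same sign in both replicate numbers for 14 of the 25.

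Promoters of the members were also described by their content of CG dinucleotides. Promoters were matched for 42 of the 69 genes. The number of CG dinucleotides in the 250 bases before the start, taking the highest where a gene has several starts, had a median of 17.5 for 16 matched members above background on all 4 arrays (range 0 to 35). It was 2.0 for 20 matched members above background on 0 arrays (range 0 to 33), 1.0 for 6 matched members above background on 1 to 3 arrays (range 1 to 17), and 6.0 for all genes in the table. The chromosome 9 cluster held 0 to 7 in each gene's window. These counts are a description with no test. No such split by background was made for all genes in the table, so the counts do not set the members apart from other genes.

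Activators, partners and substrates of these proteases were read from the same test, for a list of 56 genes. Of these 50 were measured and 21 were above background on all 4 arrays, and 0 of the 50 passed (limma, adjusted p under 0.05). Means with NSD2 were higher for 6 and lower for 15 of the 21, with a median log2 difference of -0.09, against -0.0037 over all genes above background on all 4 arrays. Among activating proteases and the urokinase receptor gene Plaur, 4 genes were above background on all 4 arrays and 0 of them had a higher mean. The differences lay between -0.09 (Plau, the urokinase gene) and -0.06 (Pcsk7), with Furin, the convertase of MMP14 and ADAM precursors, at -0.07 ± 0.20. Lrp1, the endocytic receptor that clears MMPs, ADAMTS enzymes and TIMPs, had log2 intensities of 8.25 and 8.30 in control cells and 7.51 and 7.83 with NSD2. The NSD2 arrays were lower, with a difference of -0.61 ± 0.21 (limma adjusted p = 0.9996). Reck, a membrane-anchored MMP inhibitor gene, differed by -0.14 ± 0.20.

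Of 8 measured partners of ADAM10 and ADAM17, 3 were above background on all 4 arrays, with a higher mean for 1 and a lower mean for 2, and 0 of the 8 passed the test. Tspan17, a tetraspanin that brings ADAM10 to the surface, had 8.19 and 8.41 in control cells and 7.38 and 8.14 with NSD2 (-0.54 ± 0.24), while Tspan14, of the same tetraspanin group, differed by 0.23 ± 0.21. Rhbdf1, an iRhom gene needed for ADAM17 maturation, differed by -0.27 ± 0.20. Frmd8, whose product stabilises iRhoms, was above background on 3 arrays and differed by -0.39 ± 0.21, with NSD2 lower and groups that did not overlap. Bmp1, which encodes the astacin protease that removes procollagen C-propeptides, had 11.64 and 11.66 in control cells and 11.08 and 11.10 with NSD2. Both NSD2 arrays lay below both control arrays, with a difference of -0.56 ± 0.20 (limma adjusted p = 0.9996). Its enhancer genes Pcolce2 and Pcolce differed by -0.40 ± 0.20 and 0.08 ± 0.24. Cathepsin genes, for lysosomal proteases, differed by -0.14 (Ctsb) to 0.05 (Ctsh) in 4 genes, 3 of them lower. Of 5 substrates above background on all 4 arrays 3 had higher means. The collagen gene Col1a1 differed by 0.33 ± 0.23 and the versican gene Vcan by -0.33 ± 0.21. Bmp1, Tspan17 and Pcolce2 have 4, 3 and 2 probes, and only the probe with the highest mean is given here. Differences without 1 array were followed for the members only, not for the genes of this list.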

How the data were processed

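The authors deposited the average bead signal of each probe, an intensity on a linear scale with no normalization and no detection p-values, per the file headers. Their processed values, an intensity of unstated normalization with negative entries, served as an alternative. Scanner software and settings were not given in the sources used here. Probe names came from the platform annotation, which gave 1 gene symbol for 23978 probes, several for 0 and none for 1719. Signals were corrected with normexp (offset 50), quantile normalized and compared with lmFit and eBayes in limma 3.58.1 (R 4.3.3), with no covariate and Benjamini-Hochberg adjustment over all 25697 probes. The offset compresses differences of dim probes. Background limits are the upper 5% point of the dim side of each array's log2 signal mirrored about its mode. A gene is given by its probe with the highest mean, and the procedure was tested on simulated data. Values per array are given for Mmp and Timp genes above background on all 4 arrays and for up to 5 genes per direction of the other families, and further ones were chosen after their values were seen. Members and lists were chosen with earlier results of these data known. The number of arrays limits the precision.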

Additional observations from a re-analysis of the deposited data

How the results depend on the processing

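The count of members that passed the test was 0 in each of 18 alternatives, 17 of them planned and 1, the replicate block over probes above background on all 4 arrays, chosen after seeing the data. The smallest adjusted p of a member was 0.083, for Adam12 in the latter fit, and 0.41 (Adam12 without control vector replicate 2) among the planned ones. At an unadjusted limma p under 0.05 the count of members went from 0 to 5 under the replicate block and with the authors' processed values, the most in any alternative. The count of members with a higher mean was 12 to 16 of the 22 to 28 members counted, and a minority (13 of 28, median -0.0087) without NSD2 replicate 2. Over all genes the count of 4 became 0 with an offset of 16, median scaling, the authors' processed values or probes above background on all 4 arrays, 1 with probes above background on at least 2 arrays, 10 with robust trended moderation, 37 with the replicate block, 125 with that later fit, and 2 to 12 without 1 array. The cause of these shifts was not tested. With 2 pairs the numbers are shared labels only. Deviations of same-numbered arrays correlated at 0.52 across probes, and under the block the members' adjusted p reached no lower than 0.46. Of 34 members above background on any array, 19 kept their sign in all alternatives run. Probe filters, the replicate block, robust moderation, every probe counted and the stricter limit reuse the same difference, so these could not turn a sign. Leaving out 1 array, which lets the lone array vary like the others, gave these ranges for members whose sign turned: Adam15 -0.55 to 0.029, Adam22 -0.54 to 0.29, Adam23 -0.29 to 0.39, Adam26a -0.15 to 0.52, Adamts13 -0.45 to 0.33, Adamts16 -0.050 to 0.21, Adamtsl4 -0.27 to 0.21, Mmp10 -0.33 to 0.24, Mmp13 -0.25 to 0.55, Mmp16 -0.40 to 0.50, Mmp17 -0.25 to 0.14, Mmp1a -0.047 to 0.15, Timp2 -0.064 to 0.22 and Timp3 -0.35 to 0.13. Otherwise the sign turned for Adamtsl4 (0.052) and Mmp17 (0.014) with median scaling and for Mmp28 (-0.21) with the probe of largest variance. The low signal over background of most members limits what these arrays can show.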
